A study of Mus musculus with 8 samples.

Results

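Batf, Irf4 and Bhlhe40 encode 3 transcription factors of activated T cells, and the chromatin around them was described in regulatory T (Treg) cells with and without Pggt1b. The members are the sites of the deposited count table whose midpoint lies in 1 of 3 windows of the mouse build mm9: chr12:87000000-87070000 for Batf, chr13:30800000-30880000 for Irf4 and chr6:108560000-108680000 for Bhlhe40. The windows held 58 of the 79758 sites of the table: 11 in the Batf window, 22 in the Irf4 window and 25 in the Bhlhe40 window. The assay was ATAC-seq, where a transposase cuts open DNA and adds adapters to it, on Treg cells of spleen and lymph nodes from mixed bone marrow chimeras, mice whose blood cells come from more than 1 donor. The 4 groups, of 2 libraries each, were Pggt1b-deficient eTreg (effector) cells, WT eTreg cells, Pggt1b-deficient cTreg (central) cells and WT cTreg cells. Pggt1b encodes a subunit of the enzyme GGTase-I, which attaches a lipid to small GTPases and other proteins. The labels used here do not state how Pggt1b was removed, the age and strain of the mice, or whether a group's 2 libraries are from different chimeras. The p-values therefore reflect only how far these libraries spread, and that spread may be technical.

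BATF is a small leucine-zipper protein of the AP-1 family that pairs with JUN proteins and has no activation domain of its own. IRF4, an interferon regulatory factor induced by T cell receptor signals, binds next to BATF-JUN pairs at composite DNA elements, and mice need it for effector Treg cells to form. BHLHE40 is a basic helix-loop-helix factor that binds E-box DNA, mostly as a repressor, is induced by T cell receptor signals, and limits Il10 expression in T helper cells.

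The promoters of Batf and Irf4 were at hand as sequence and are shown because the windows bear the names of these genes. They are RefSeq sequences of build GRCm38.p6, from 250 bases before to 50 bases after the start of the gene, and 2 of the 3 genes had an entry. Their positions on that build are chr12:85686470-85686769 for Batf and chr13:30748983-30749282 for Irf4, both on the plus strand. These cannot be set against the mm9 positions of the sites, so which site covers a promoter was not determined. Capitals mark matches, on either strand, to 3 short motifs. These are GGAAA, the core bound by NFAT factors, then GGGCGG, known as the GC box, and lastly TATAAA, the element that places the start of transcription in some promoters.
Batf promoter: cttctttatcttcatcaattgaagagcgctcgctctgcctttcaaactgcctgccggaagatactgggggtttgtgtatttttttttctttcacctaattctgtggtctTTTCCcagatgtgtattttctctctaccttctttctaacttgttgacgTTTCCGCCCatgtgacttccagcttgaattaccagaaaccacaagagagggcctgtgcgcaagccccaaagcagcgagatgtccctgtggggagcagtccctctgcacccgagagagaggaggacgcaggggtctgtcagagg
Irf4 promoter: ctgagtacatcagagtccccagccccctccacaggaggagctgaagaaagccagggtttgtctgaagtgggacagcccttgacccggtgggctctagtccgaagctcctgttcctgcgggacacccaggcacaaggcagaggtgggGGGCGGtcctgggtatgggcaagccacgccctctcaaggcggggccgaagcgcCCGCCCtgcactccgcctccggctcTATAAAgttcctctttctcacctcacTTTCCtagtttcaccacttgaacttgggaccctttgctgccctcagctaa
The Batf sequence held 2 matches to GGAAA and 1 to GGGCGG, and the second GGAAA match and the GGGCGG match share bases and form 1 run of capitals. The Irf4 sequence held 1 match to GGAAA, 2 to GGGCGG and 1 to TATAAA. Of the 32851 promoters of the table, 61.3% held GGAAA, 35.7% GGGCGG and 13.6% TATAAA. Neither sequence held TGANTCA (an AP-1 element, in 7.81% of promoters) or CACGTG (an E-box, in 7.15%). On the same annotation, Batf lies between Jdp2 and Flvcr2, Irf4 between Dusp22 and Exoc2, and Bhlhe40 between Itpr1 and Arl8b.

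Library totals were 2255214 and 1664702 counts for Pggt1b-deficient eTreg, against 7153991 to 14974253 for the other 6 libraries. A single count was therefore worth 0.448 and 0.593 CPM (counts scaled to the library's TMM-adjusted total) in the Pggt1b-deficient eTreg libraries, and 0.0679 to 0.138 CPM in the others, so the values of small sites move in coarser steps in that group. The dispersion between its 2 libraries was 0.0438, against 0.00723 to 0.0111 in the other groups. Of the 58 members, 55 passed the filter on low counts and were tested. The other 3, chr13:30840143-30840171, chr6:108613296-108613332 and chr6:108663727-108663752, averaged 0.726, 0.700 and 0.294 CPM over the groups. Sites were tested with edgeR's quasi-likelihood test over all 75352 sites that passed, and a site was called at a Benjamini-Hochberg adjusted p under 0.05. Changes are log2 fold changes ± their standard error. The model gave all groups a shared estimate of the spread at each site. Errors and p-values may therefore be too small where Pggt1b-deficient eTreg, the group with the largest dispersion, is compared. No site was assigned to a gene, exon or promoter on mm9, and the deletion of Pggt1b itself was not analysed here.

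Summed over all its sites, each window had its own order of groups. In the Bhlhe40 window the sum was 472 and 440 CPM in Pggt1b-deficient eTreg, 543 and 541 CPM in WT eTreg, 383 and 368 CPM in Pggt1b-deficient cTreg, and 394 and 407 CPM in WT cTreg libraries. Both eTreg groups lay above both cTreg groups there, and WT eTreg was highest. The Irf4 window summed to 165 and 165 CPM in Pggt1b-deficient eTreg, 205 and 206 CPM in WT eTreg, 259 and 247 CPM in Pggt1b-deficient cTreg, and 233 and 236 CPM in WT cTreg libraries. Here the eTreg groups were lowest, Pggt1b-deficient eTreg below WT eTreg. In the Batf window the sum was 77.1 and 78.2 CPM in Pggt1b-deficient eTreg, 89.5 and 84.5 CPM in WT eTreg, 80.5 and 81.4 CPM in Pggt1b-deficient cTreg, and 79.7 and 78.4 CPM in WT cTreg libraries. The groups lay close together there, with WT eTreg at the top. The Pggt1b-deficient eTreg mean was 0.841 of the WT eTreg mean at Bhlhe40, 0.805 at Irf4 and 0.893 at Batf. In cTreg cells the Pggt1b-deficient mean was 0.937 of the WT mean at Bhlhe40, 1.08 at Irf4 and 1.02 at Batf. The libraries of the groups compared overlapped in none of the 4 pairwise comparisons of these 3 sums, but with 2 libraries on each side the smallest p of a two-sided exact permutation test is 0.33, and no test was made.

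**Figure D1:**
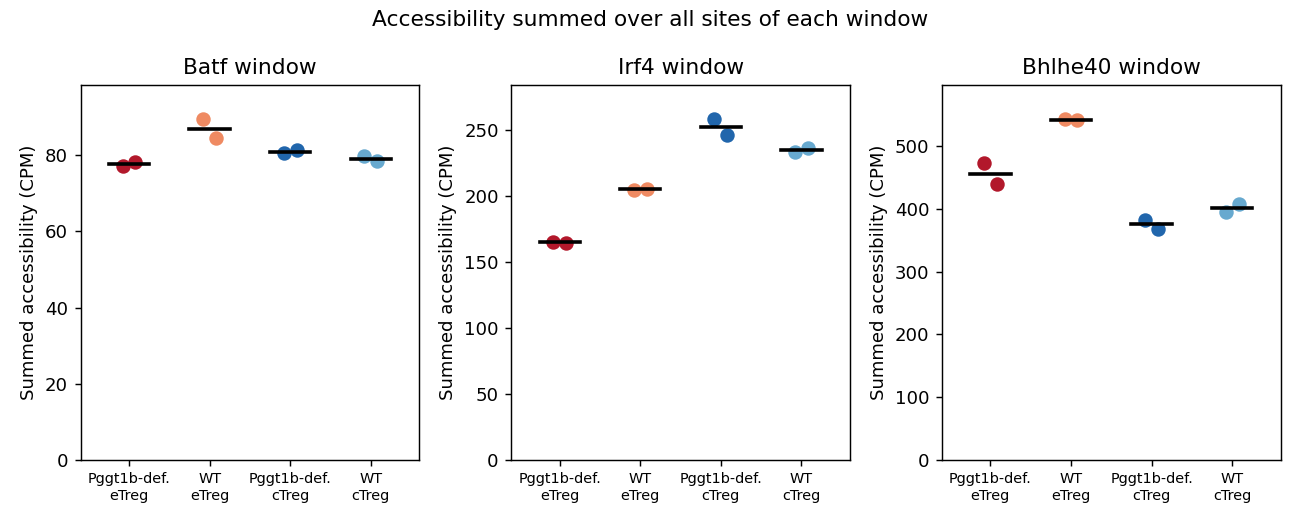
Accessibility summed over all sites of the Batf, Irf4 and Bhlhe40 windows (y axis, CPM) in each library (points, 2 per group) with the group mean (line). WT eTreg is highest at Bhlhe40 with a mean of 542 CPM, while at Irf4 Pggt1b-deficient eTreg is lowest with a mean of 165 CPM.

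The Bhlhe40 window was more accessible in WT eTreg than in WT cTreg cells at many of its sites. Of its 23 tested members, 9 were higher and 1 was lower in WT eTreg cells (edgeR, adjusted p under 0.05), and the median log2 fold change was 0.47, against 0.00 over all sites. Over all 75352 sites 28.7% were called in this comparison, 13.8% higher and 14.9% lower. Across all 3 windows 14 of 55 tested members were called, 11 higher and 3 lower, which at 25.5% is near that background. Groups did not overlap at 20 higher and 19 lower members, against 33.7% and 33.9% of all sites. The count was 9 without WT cTreg replicate 1, 8 without WT eTreg replicate 1, 8 without WT eTreg replicate 2 and 8 with DESeq2.

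The widest member, the 1888 bp site chr6:108609136-108611024, held 46.4% of the summed signal of the Bhlhe40 window. Among all 79758 sites only 0.117% were wider and 0.26% had a higher mean CPM. It had 243 and 232 CPM in Pggt1b-deficient eTreg, 265 and 257 CPM in WT eTreg, 153 and 157 CPM in Pggt1b-deficient cTreg, and 167 and 173 CPM in WT cTreg libraries. All 4 eTreg libraries thus lay above all 4 cTreg libraries. The site rose by 0.62 ± 0.07 in WT eTreg over WT cTreg (edgeR adjusted p = 5.68e-09) and by 0.62 ± 0.08 in Pggt1b-deficient eTreg over Pggt1b-deficient cTreg (edgeR adjusted p = 1.23e-06). Pggt1b-deficient against WT gave -0.13 ± 0.08 in eTreg and -0.13 ± 0.07 in cTreg cells, neither of them called (edgeR adjusted p = 0.287 and 0.431).

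The neighbouring 899 bp site, chr6:108608044-108608943, differed more between the subsets. It had 35.9 and 29.6 CPM in Pggt1b-deficient eTreg, 43.0 and 45.3 CPM in WT eTreg, 15.3 and 13.4 CPM in Pggt1b-deficient cTreg, and 19.0 and 18.3 CPM in WT cTreg libraries. Again no eTreg library reached down to a cTreg library. The rise was 1.24 ± 0.13 in WT cells (edgeR adjusted p = 1.97e-09) and 1.20 ± 0.19 in Pggt1b-deficient cells (edgeR adjusted p = 4.58e-05). Pggt1b-deficient against WT gave -0.42 ± 0.17 in eTreg and -0.38 ± 0.16 in cTreg cells, neither called (edgeR adjusted p = 0.103 and 0.251). At both of these sites the subset difference of each genotype kept its call under every alternative run, and the interaction, the difference between the genotypes' subset effects, was -0.00 ± 0.11 at the 1888 bp site and -0.04 ± 0.23 at the 899 bp site (edgeR adjusted p = 0.998 and 0.958).

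A pair of small sites nearby opened most steeply. chr6:108622197-108622274, of 77 bp, had 2.69 and 2.37 CPM in Pggt1b-deficient eTreg, 8.43 and 8.48 CPM in WT eTreg, 0.449 and 0.276 CPM in Pggt1b-deficient cTreg, and 0.483 and 1.43 CPM in WT cTreg libraries. WT eTreg was far above the other groups and Pggt1b-deficient eTreg stood between it and cTreg. The rise in WT eTreg over WT cTreg was 3.12 ± 0.40 (edgeR adjusted p = 7.1e-08). Pggt1b-deficient eTreg fell by 1.72 ± 0.51 against WT eTreg (edgeR adjusted p = 0.023), a call lost in 7 of 16 alternatives, among them leaving out any of the 4 compared libraries (adjusted p up to 0.105 for these). Against Pggt1b-deficient cTreg it was called higher (edgeR adjusted p = 0.028), on 10 counts against 6. The ratio there was 6.88, with a Clopper-Pearson 95% interval of 1.34 to 44.3 that covers counting error only and takes every 2 counts as 1 observation. That call was lost in 6 of 16 alternatives. These were leaving out Pggt1b-deficient eTreg replicate 1 or either Pggt1b-deficient cTreg library, limma-voom with group weights, only the compared libraries, and thinning. The interaction was -0.39 ± 1.02, and its sign turned in 3 of 14 alternatives, to 0.078 after thinning to the smallest library, 0.18 when WT cTreg replicate 1 was left out and 0.012 when Pggt1b-deficient cTreg replicate 1 was. A difference in the subset effect was not detectable at this depth.

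The other small site, chr6:108622380-108622428, of 48 bp, had 0.448 and 2.96 CPM in Pggt1b-deficient eTreg, 3.34 and 4.14 CPM in WT eTreg, 0.112 and 0.690 CPM in Pggt1b-deficient cTreg, and 0.805 and 0.475 CPM in WT cTreg libraries. The Pggt1b-deficient eTreg libraries lay far apart here. The site rose by 2.53 ± 0.56 in WT eTreg over WT cTreg (edgeR adjusted p = 0.000498) and was not called in Pggt1b-deficient eTreg against either WT eTreg or Pggt1b-deficient cTreg.

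At 2 further WT eTreg-higher sites of the Bhlhe40 window, Pggt1b-deficient eTreg was called lower than WT eTreg. The 374 bp site chr6:108612641-108613015 had 2.69 and 7.70 CPM in Pggt1b-deficient eTreg, 10.5 and 11.9 CPM in WT eTreg, 4.49 and 5.38 CPM in Pggt1b-deficient cTreg, and 5.72 and 4.99 CPM in WT cTreg libraries. It rose by 1.06 ± 0.26 in WT eTreg over WT cTreg (edgeR adjusted p = 0.00162), and fell by 1.19 ± 0.39 in Pggt1b-deficient against WT eTreg (edgeR adjusted p = 0.0411). Without Pggt1b-deficient eTreg replicate 1 that change was -0.55, and without replicate 2 it was -2.06. The fall in Pggt1b-deficient eTreg was lost in 9 of 16 alternatives, with an adjusted p up to 0.461. Leaving out either WT eTreg library, either WT cTreg library or Pggt1b-deficient eTreg replicate 1 was enough to lose it.

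chr6:108654782-108655141, of 359 bp, lay farther out. It had 4.48 and 3.56 CPM in Pggt1b-deficient eTreg, 11.5 and 11.2 CPM in WT eTreg, 2.69 and 4.69 CPM in Pggt1b-deficient cTreg, and 6.93 and 6.65 CPM in WT cTreg libraries. All 4 Pggt1b-deficient libraries lay below all 4 WT libraries. The site fell by 1.47 ± 0.40 in Pggt1b-deficient against WT eTreg (edgeR adjusted p = 0.0113). That call was lost with limma-voom and group weights (adjusted p = 0.0985) and after thinning to the smallest library (edgeR adjusted p = 0.0683). It was also lost without Pggt1b-deficient eTreg replicate 1 or replicate 2, where the change was -1.68 and -1.34. In cTreg cells the difference was -0.90 ± 0.30, not called (edgeR adjusted p = 0.11). WT eTreg was higher than WT cTreg by 0.74 ± 0.25 (edgeR adjusted p = 0.0207), a call lost without any 1 of the 4 compared libraries (adjusted p up to 0.15). The subset effects of the genotypes did not differ beyond their error (interaction -0.57 ± 0.52, edgeR adjusted p = 0.653).

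The second strongest member of the window, chr6:108638442-108638816, had the smallest change of the 9 sites called between Pggt1b-deficient and WT eTreg. It had 55.6 and 51.6 CPM in Pggt1b-deficient eTreg, 67.3 and 75.0 CPM in WT eTreg, 61.1 and 53.0 CPM in Pggt1b-deficient cTreg, and 65.7 and 66.4 CPM in WT cTreg libraries. Both Pggt1b-deficient groups lay below their WT counterparts. Pggt1b-deficient eTreg fell by 0.41 ± 0.13 against WT eTreg (edgeR adjusted p = 0.0339, up to 0.23 over alternatives, and lost without WT cTreg replicate 1, WT eTreg replicate 2 or either Pggt1b-deficient eTreg library). Per kilobase of site it averaged 166 CPM, a level that 2.69% of all sites exceeded.

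Not all of the Bhlhe40 window opened in eTreg cells. chr6:108580628-108581038, a 410 bp site, had 15.2 and 14.8 CPM in Pggt1b-deficient eTreg, 15.4 and 10.2 CPM in WT eTreg, 24.9 and 24.0 CPM in Pggt1b-deficient cTreg, and 21.9 and 22.3 CPM in WT cTreg libraries. The eTreg libraries of both genotypes lay below every cTreg library. It fell by 0.81 ± 0.17 in WT eTreg against WT cTreg (edgeR adjusted p = 0.000345). That call was lost after thinning to the smallest library (edgeR adjusted p = 0.487) and without WT eTreg replicate 2, where the change was -0.53. In Pggt1b-deficient cells the subset difference was -0.70 ± 0.24, not called (edgeR adjusted p = 0.0623). Another 3 of the 9 WT eTreg-higher sites are mentioned after their values were seen. These were chr6:108613889-108614029, chr6:108615588-108615955 and chr6:108617661-108617931, with log2 fold changes of 1.22 ± 0.31, 0.59 ± 0.19 and 1.39 ± 0.52. The calls at chr6:108615588-108615955 and chr6:108617661-108617931 were lost without WT cTreg replicate 1 or WT eTreg replicate 1, and at chr6:108617661-108617931 also without WT eTreg replicate 2 (adjusted p up to 0.254 and 0.544). At chr6:108617661-108617931 the WT cTreg libraries held 4 and 28 counts, and the change was 0.58 without WT cTreg replicate 1 and 3.32 without WT cTreg replicate 2. In Pggt1b-deficient against WT eTreg these 3 sites changed by -1.30 ± 0.48, -0.12 ± 0.26 and -2.69 ± 1.01, in the same order. None was called (edgeR adjusted p = 0.0717, 0.823 and 0.0785), and the last held 2 and 0 counts in Pggt1b-deficient eTreg.

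**Figure D2:**
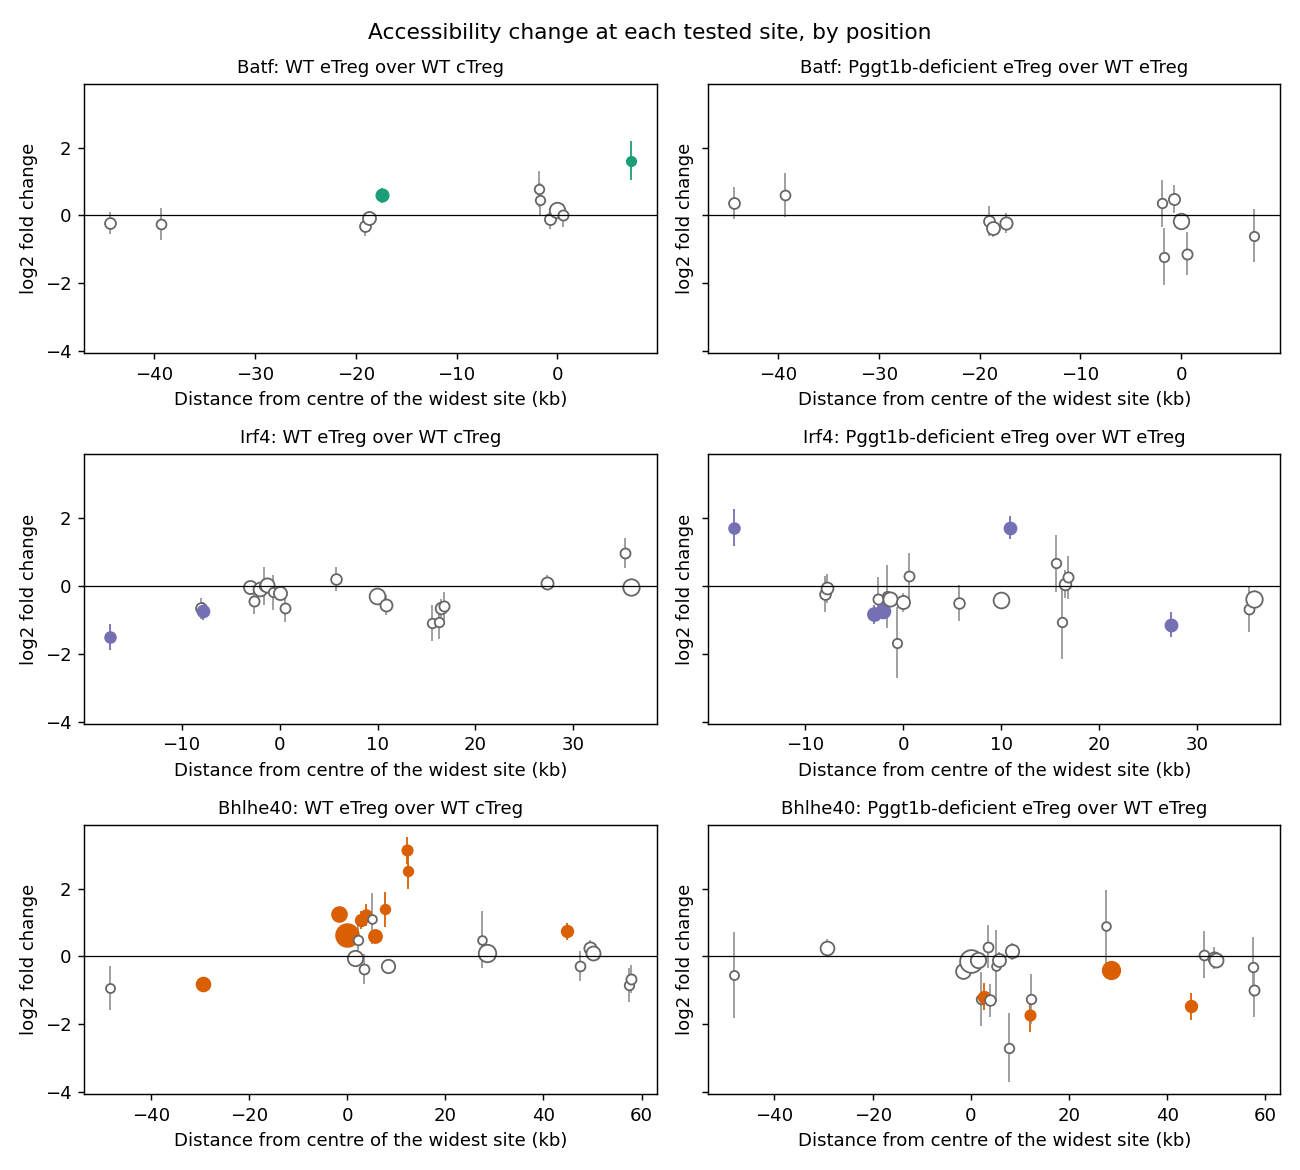
Log2 fold change (y axis, bars are standard errors) of each tested site by distance in kb from the centre of the widest site of its window, for WT eTreg over WT cTreg (left) and Pggt1b-deficient over WT eTreg (right). Filled points were called by edgeR and point size grows with mean CPM; the 9 WT eTreg-higher sites at Bhlhe40 lie around the 1888 bp site with 1 exception far out, and 4 Bhlhe40 sites are called lower on the right.

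Most sites of the Irf4 window had a negative change in eTreg against cTreg cells in either genotype, but most were not called. Of its 21 tested members, 17 had a negative log2 fold change in WT eTreg against WT cTreg (81% against 49.8% of all sites), with a median of -0.29. Of the 21, 2 were called lower and none higher, or 9.52%, against 28.7% of all sites called in that comparison and 14.9% called lower. In Pggt1b-deficient eTreg against Pggt1b-deficient cTreg cells, 20 of the 21 were negative (95.2% against 53.7% of all sites), with a median of -0.67 against -0.06 over all sites. Calls there were 4 lower and 1 higher, or 23.8% of the 21 (edgeR, adjusted p under 0.05). Over all sites 9.12% were called in that comparison, 4.59% higher and 4.52% lower. The interaction, which tests whether the subset effect differs between genotypes, was called at 0 of the 21 (smallest edgeR adjusted p 0.0571, with 6 at an unadjusted p under 0.05). Over all sites 1.51% were called in the interaction, and with 21 sites 0 calls cannot be told from a share of that size. Across the 3 windows 8 of 55 members were called, 4 in each direction. Groups did not overlap at 8 higher and 21 lower members, against 20.9% and 28.8% of all sites. Limma-voom with group weights made 4 calls in 55 members, where it called 4.11% of all sites. Fewer members were called without either Pggt1b-deficient cTreg library or without Pggt1b-deficient eTreg replicate 1. The share of all sites called was lower in those fits too. Neighbouring sites of a window may be parts of 1 open region, so they are not independent.

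The strongest member, chr13:30878097-30878469, had 33.2 and 39.1 CPM in Pggt1b-deficient eTreg, 47.0 and 46.0 CPM in WT eTreg, 52.6 and 58.8 CPM in Pggt1b-deficient cTreg, and 49.7 and 45.2 CPM in WT cTreg libraries. The Pggt1b-deficient eTreg libraries were lowest and the WT groups overlapped each other. Pggt1b-deficient eTreg fell by 0.63 ± 0.15 against Pggt1b-deficient cTreg (edgeR adjusted p = 0.00529, and 0.104 without Pggt1b-deficient eTreg replicate 1). The WT subset difference was -0.03 ± 0.11 and the interaction -0.60 ± 0.19, neither called (edgeR adjusted p = 0.87 and 0.0895).

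The next strongest, chr13:30852210-30852564, had 29.2 and 22.5 CPM in Pggt1b-deficient eTreg, 34.7 and 34.8 CPM in WT eTreg, 49.1 and 45.0 CPM in Pggt1b-deficient cTreg, and 41.8 and 43.2 CPM in WT cTreg libraries. No group overlapped another here, and the order ran from Pggt1b-deficient eTreg at the bottom to Pggt1b-deficient cTreg at the top. Pggt1b-deficient eTreg fell by 0.85 ± 0.17 against Pggt1b-deficient cTreg (edgeR adjusted p = 0.000782), a call kept under all 16 alternatives. In the WT the difference was -0.29 ± 0.11, not called (edgeR adjusted p = 0.0501), and the interaction was -0.55 ± 0.21 (edgeR adjusted p = 0.172).

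About 1 kb away the 120 bp site chr13:30853271-30853391 went the opposite way. It had 19.3 and 10.1 CPM in Pggt1b-deficient eTreg, 4.73 and 4.48 CPM in WT eTreg, 8.75 and 6.07 CPM in Pggt1b-deficient cTreg, and 5.40 and 8.16 CPM in WT cTreg libraries. Both Pggt1b-deficient eTreg libraries lay above every other library, though far from each other. The site rose by 1.71 ± 0.34 in Pggt1b-deficient against WT eTreg (edgeR adjusted p = 0.000618) and by 1.01 ± 0.33 against Pggt1b-deficient cTreg (edgeR adjusted p = 0.0489). Without Pggt1b-deficient eTreg replicate 1 the change against WT eTreg was 1.12 with an adjusted p of 0.147, the only 1 of 16 alternatives that lost that call. The rise over Pggt1b-deficient cTreg was 0.41 without the same library and was lost in 12 of 16, among them leaving out any 1 library other than Pggt1b-deficient eTreg replicate 2. The interaction was 1.57 ± 0.44 with an edgeR adjusted p of 0.0571, the smallest of all members. It stayed uncalled in 13 of 15 alternatives, and its value ranged from 0.98 to 2.35 over the 15. It was called only without Pggt1b-deficient cTreg replicate 1 or without Pggt1b-deficient eTreg replicate 2.

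A dense run of 9 members lay between chr13:30839333 and chr13:30843022, and the 4 sites of the run with the most signal had their lowest mean in Pggt1b-deficient eTreg. chr13:30840287-30840541 had 11.7 and 12.4 CPM in Pggt1b-deficient eTreg, 22.1 and 18.3 CPM in WT eTreg, 22.1 and 21.3 CPM in Pggt1b-deficient cTreg, and 22.5 and 20.2 CPM in WT cTreg libraries. The other 3 groups overlapped one another. The site fell by 0.74 ± 0.24 in Pggt1b-deficient against WT eTreg and by 0.85 ± 0.25 against Pggt1b-deficient cTreg (edgeR adjusted p = 0.0415 and 0.0222). The first call was lost in 10 of 16 alternatives (adjusted p up to 0.19), among them without either Pggt1b-deficient eTreg library, either WT cTreg library or WT eTreg replicate 1. The second was lost in 5 of 16 (up to 0.367), among them without Pggt1b-deficient cTreg replicate 1 or Pggt1b-deficient eTreg replicate 1.

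Its neighbour chr13:30839333-30839583 had 7.18 and 10.7 CPM in Pggt1b-deficient eTreg, 14.2 and 16.8 CPM in WT eTreg, 15.8 and 16.1 CPM in Pggt1b-deficient cTreg, and 16.0 and 15.6 CPM in WT cTreg libraries. The pattern was the same, with only the Pggt1b-deficient eTreg libraries apart. It fell by 0.84 ± 0.28 in Pggt1b-deficient against WT eTreg and by 0.87 ± 0.29 against Pggt1b-deficient cTreg (edgeR adjusted p = 0.0486 and 0.0487). These calls sat at the threshold and were lost in 13 and 14 of 16 alternatives, with an adjusted p up to 0.35 and 0.345; RLE scaling alone was enough for both. The change against WT eTreg was -0.56 without Pggt1b-deficient eTreg replicate 1. Leaving out any 1 library other than Pggt1b-deficient eTreg replicate 2 also lost both. The interaction was -0.85 ± 0.34 at this site and -0.76 ± 0.29 at chr13:30840287-30840541, neither called (edgeR adjusted p = 0.212 and 0.19). The widest member, chr13:30842213-30842667, had 10.8 and 9.48 CPM in Pggt1b-deficient eTreg, 13.7 and 14.9 CPM in WT eTreg, 15.7 and 16.3 CPM in Pggt1b-deficient cTreg, and 15.7 and 17.7 CPM in WT cTreg libraries. It was not called in any comparison.

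The outlying sites of the Irf4 window behaved differently again. The leftmost, chr13:30825115-30825200, had 5.83 and 3.56 CPM in Pggt1b-deficient eTreg, 0.741 and 2.04 CPM in WT eTreg, 7.51 and 5.38 CPM in Pggt1b-deficient cTreg, and 4.11 and 4.20 CPM in WT cTreg libraries. WT eTreg was lowest in both libraries. The site fell by 1.50 ± 0.39 in WT eTreg against WT cTreg (edgeR adjusted p = 0.00298). That call was lost after thinning to the smallest library (edgeR adjusted p = 0.39) and without WT eTreg replicate 1. The site rose by 1.72 ± 0.54 in Pggt1b-deficient against WT eTreg (edgeR adjusted p = 0.0321). The rise was lost in 5 of 16 alternatives (adjusted p up to 0.332), among them without WT eTreg replicate 1 or Pggt1b-deficient eTreg replicate 1. Without WT eTreg replicate 2 these changes were -2.47 in WT eTreg against WT cTreg and 2.68 in Pggt1b-deficient against WT eTreg. In cTreg cells Pggt1b-deficient against WT gave 0.64 ± 0.34, and the interaction was 1.07 ± 0.63, neither called (edgeR adjusted p = 0.416 and 0.427). chr13:30869623-30869916 had 3.59 and 7.11 CPM in Pggt1b-deficient eTreg, 9.82 and 12.8 CPM in WT eTreg, 6.28 and 8.69 CPM in Pggt1b-deficient cTreg, and 11.0 and 10.3 CPM in WT cTreg libraries. Both Pggt1b-deficient groups lay below both WT groups, overlapping each other. It fell by 1.14 ± 0.37 in Pggt1b-deficient against WT eTreg (edgeR adjusted p = 0.0386), a call lost in 9 of 16 alternatives (up to 0.361, with a change of -0.69 without Pggt1b-deficient eTreg replicate 1), among them without either WT cTreg library, WT eTreg replicate 2 or Pggt1b-deficient eTreg replicate 1. The remaining call of the window, chosen for mention after its values were seen, was chr13:30834592-30834707, which fell by 0.74 ± 0.27 in WT eTreg against WT cTreg (edgeR adjusted p = 0.0344, and up to 0.348 when 1 library was left out). It was lost without either WT cTreg library, and also without WT eTreg replicate 2, which left a change of -0.49.

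**Figure D3:**
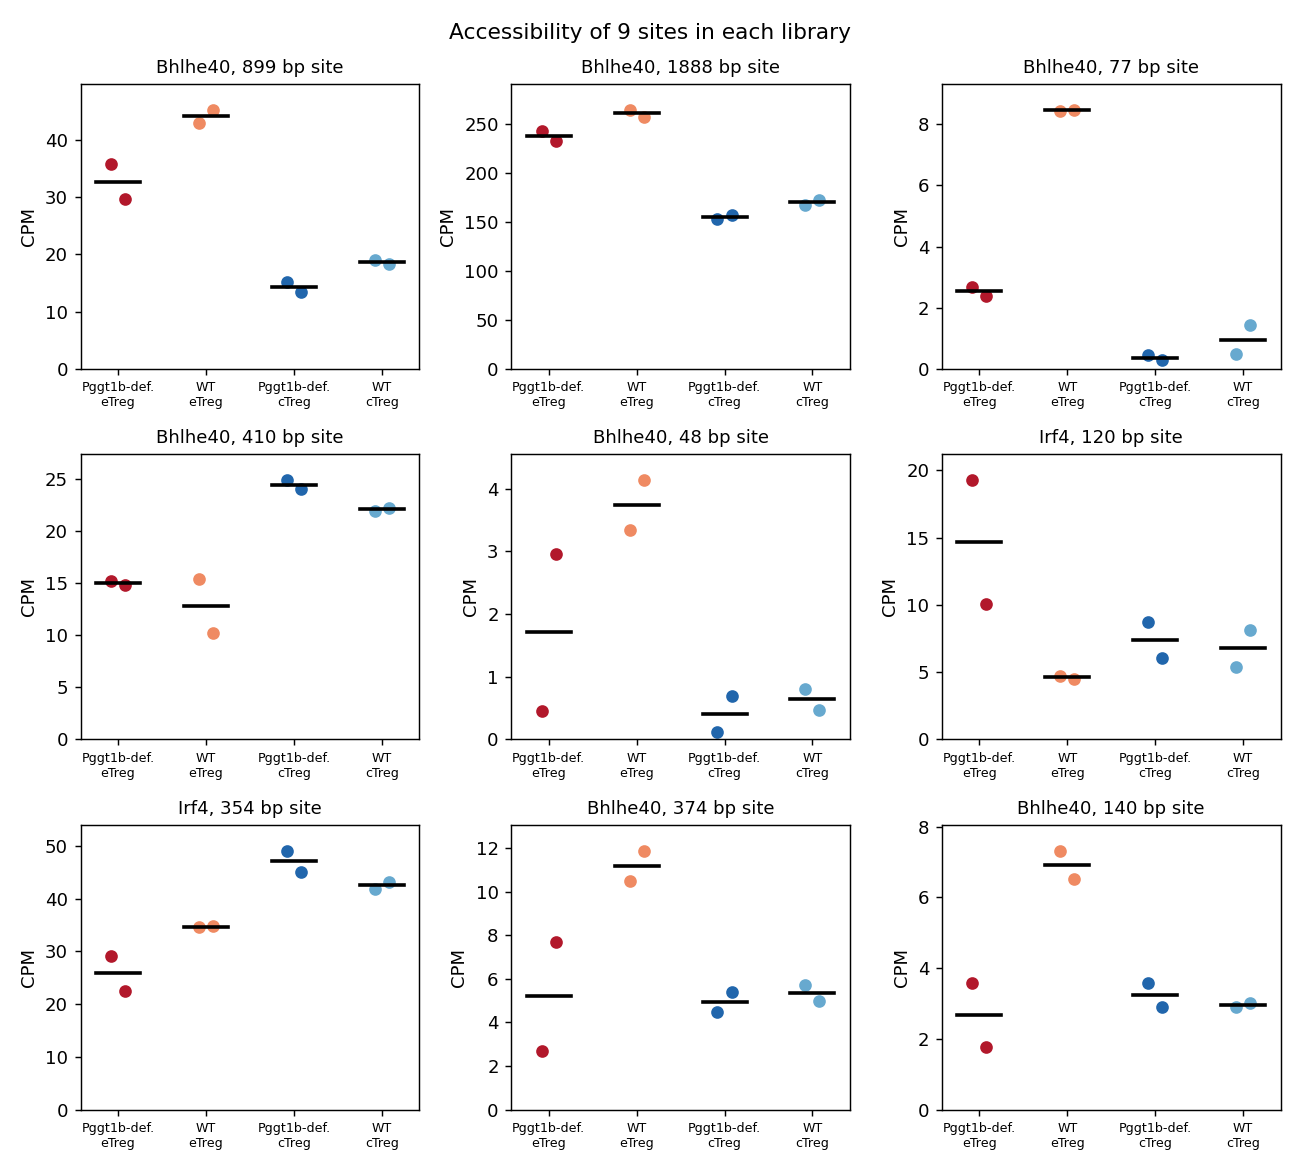
Accessibility (y axis, CPM) of the 9 members with the smallest adjusted p in any pairwise comparison, in each of the 8 libraries (points), with group means (lines) for Pggt1b-deficient eTreg, WT eTreg, Pggt1b-deficient cTreg and WT cTreg. The 1888 bp and 899 bp Bhlhe40 sites are high in both eTreg groups, the 77 bp site peaks in WT eTreg at 8.43 and 8.48 CPM, and at the 120 bp Irf4 site Pggt1b-deficient eTreg stands above the other groups at 19.3 and 10.1 CPM.

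The Batf window held 2 calls, both between the WT subsets. Of its 11 members, all of them tested, 2 were higher in WT eTreg than in WT cTreg cells, and none was called in the other 4 contrasts (edgeR, smallest adjusted p 0.217 to 0.544, with 0 members at an unadjusted p under 0.05). Over all sites 28.7% were called in WT eTreg against WT cTreg, and 11.1%, 2.21%, 9.12% and 1.51% in Pggt1b-deficient against WT eTreg, the same in cTreg, Pggt1b-deficient eTreg against cTreg, and the interaction. With 11 sites, 0 calls cannot be told from shares of that size. The widest and strongest, chr12:87046087-87046784, had 30.5 and 33.8 CPM in Pggt1b-deficient eTreg, 37.0 and 35.5 CPM in WT eTreg, 35.4 and 34.1 CPM in Pggt1b-deficient cTreg, and 32.5 and 32.3 CPM in WT cTreg libraries. All 8 values lay between 30.5 and 37.0 CPM, and the site held 41.7% of the summed signal of the window. Pggt1b-deficient against WT gave -0.18 ± 0.16 in eTreg and 0.10 ± 0.12 in cTreg cells. The second strongest, chr12:87027585-87027867, had 11.2 and 10.7 CPM in Pggt1b-deficient eTreg, 14.1 and 14.1 CPM in WT eTreg, 16.7 and 11.7 CPM in Pggt1b-deficient cTreg, and 15.6 and 14.0 CPM in WT cTreg libraries. Pggt1b-deficient eTreg was lowest but was not called against WT eTreg (-0.36 ± 0.28, edgeR adjusted p = 0.447).

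The 2 called Batf sites were chosen for mention after their values were seen. chr12:87028920-87029127 had 11.7 and 8.30 CPM in Pggt1b-deficient eTreg, 10.9 and 12.7 CPM in WT eTreg, 8.86 and 9.94 CPM in Pggt1b-deficient cTreg, and 8.46 and 7.29 CPM in WT cTreg libraries. It rose by 0.59 ± 0.22 in WT eTreg over WT cTreg (edgeR adjusted p = 0.0388). chr12:87053690-87053758 had 0.897 and 2.37 CPM in Pggt1b-deficient eTreg, 2.41 and 2.31 CPM in WT eTreg, 1.12 and 0.276 CPM in Pggt1b-deficient cTreg, and 0.644 and 0.871 CPM in WT cTreg libraries. It rose by 1.62 ± 0.58 in WT eTreg over WT cTreg (edgeR adjusted p = 0.0321). Both calls were lost without any 1 of the 4 compared libraries (adjusted p up to 0.297 and 0.221).

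Set against WT eTreg over all 3 windows, Pggt1b-deficient eTreg cells were lower at 7 and higher at 2 of the 55 tested members (edgeR, adjusted p under 0.05), which is 16.4%. Over all sites 11.1% were called, 6.43% lower and 4.66% higher. The members were 4 lower at Bhlhe40, 3 lower and 2 higher at Irf4, and none at Batf. With loess offsets in place of TMM the split was 4 lower and 2 higher, where 10.9% of all sites were called. The median log2 fold change was -0.32 over the members and -0.09 over all sites, and 40 of 55 members were negative (72.7% against 55.1% of all sites). The CPM of the groups did not overlap at 23 lower and 7 higher members, where 31.5% of all sites were lower and 21% higher in that way. Of the 7 lower members 3 were WT eTreg-higher, which is 3 of 7 and 3 of 11. The 2 comparisons share the WT eTreg libraries, which by itself can raise such an overlap, and its share over all sites was not computed. These counts are therefore given side by side and no more. The count of 9 rested on few libraries. Leaving out Pggt1b-deficient eTreg replicate 1 left 0, and leaving out replicate 2 left 5. Leaving out either WT eTreg library left 4, and leaving out WT cTreg replicate 1 or 2 left 4 or 5. With each of these libraries left out, the share of all sites called was lower as well. DESeq2 called 3 of 52 members, where it called 9.49% of all sites. Limma-voom with group weights called 1 of 55 against 6.09%, and edgeR with only the 4 compared libraries 3 of 48 against 8.73%.

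In cTreg cells no member was called between Pggt1b-deficient and WT (edgeR, 0 of 55, with 5 at an unadjusted p under 0.05), where 2.21% of all sites were, 0.53% higher and 1.69% lower. Groups did not overlap at 10 higher and 9 lower members, against 20.7% and 26.3% of all sites. DESeq2 and limma-voom with group weights also called 0, though DESeq2 gave only 25 members an adjusted p. Over all sites they called 2.6% and 3.8%. At an unadjusted p under 0.05 there was 1 of all 58 members by DESeq2 and 7 of 55 by limma-voom. The median log2 fold change was -0.01 over the members, 0.10 at Irf4, -0.17 at Bhlhe40 and -0.05 at Batf. The member nearest to a call was chr6:108654782-108655141, described above, at an adjusted p of 0.11 by edgeR. The interaction was called at 0 of 55 members (edgeR, 9 at an unadjusted p under 0.05), where 1.51% of all sites were called, 0.957% positive and 0.555% negative. It was also 0 with DESeq2 and with limma-voom, each with 7 at an unadjusted p under 0.05, though DESeq2 gave only 25 members an adjusted p. Over all sites DESeq2 called 2.24% and limma-voom 1.08%. Leaving out Pggt1b-deficient cTreg replicate 1 gave 1 call, and leaving out Pggt1b-deficient eTreg replicate 2 gave 2. A difference between the subsets in the effect of Pggt1b loss was not detectable at these sites with all 8 libraries, which does not show that the effects were alike.

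**Figure D4:**
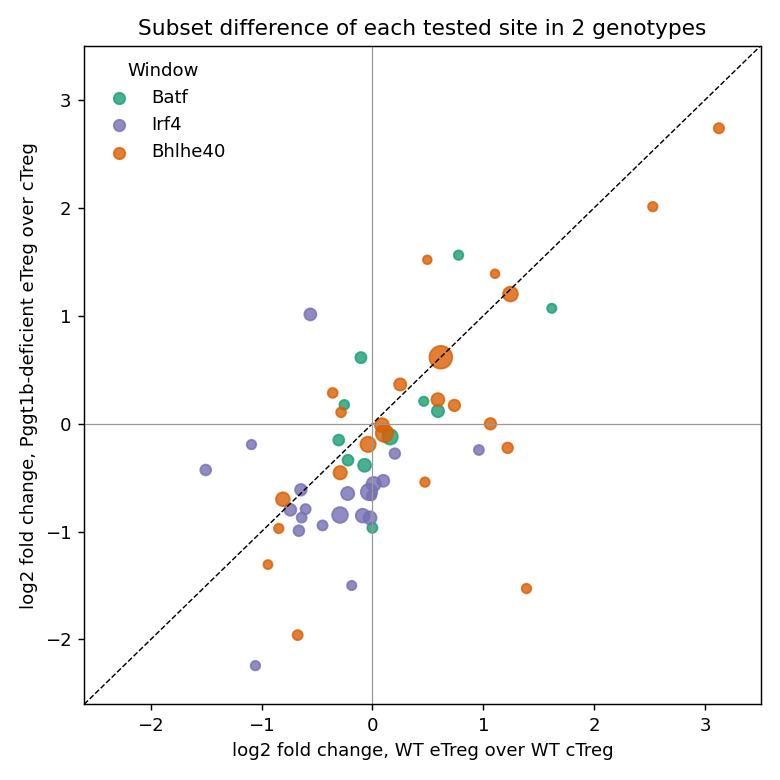
Log2 fold change of eTreg over cTreg for the 55 tested sites in WT (x axis) and in Pggt1b-deficient cells (y axis), coloured by window, with point size growing with mean CPM and the dashed line marking equal values. The 1888 bp Bhlhe40 site lies on the line at 0.62, and 20 of 21 Irf4 sites lie below 0 on the y axis.

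Between WT and Pggt1b-deficient cells the subset differences share no library and can be set side by side. Of the 11 members higher in WT eTreg than in WT cTreg, 3 were also higher in Pggt1b-deficient eTreg than in Pggt1b-deficient cTreg, all at Bhlhe40: the 1888 bp, 899 bp and 77 bp sites. They make up 3 of the 4 called higher in Pggt1b-deficient cells and 3 of the 11 in WT cells. The call of the 77 bp site in Pggt1b-deficient cells was lost in 6 of 16 alternatives. Over all sites, 2249 were higher in both, which is 65% of those in Pggt1b-deficient cells and 21.6% of those in WT cells, so nothing particular to these windows is read from the overlap. None of the 3 WT eTreg-lower members was among the 4 that were lower in Pggt1b-deficient eTreg, which all lie at Irf4. Over all sites, 2152 were lower in both, which is 63.1% of those in Pggt1b-deficient cells and 19.2% of those in WT cells. Sets of 3 and 4 members are too small to set against these shares.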

How the data were processed

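Per the file headers and the labels, each deposited column holds whole-number counts over sites, not normalized, and matched 1 sample title. The submitters' processing notes list mm9 (NCBIM37), MACS2 2.1.1, bedtools, SAMtools, Trimmomatic 0.36 and Picard 2.9.4. No source used here states the aligner, the shift of read ends, the peak threshold, pooling for peak calling or whether reads or fragments were counted. Of counts from 1 to 10, 66.1% to 77.4% were even, so many counts come in pairs. The base from which positions count is not stated either, which can move a start by 1.

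The analysis used R 4.3.3 and edgeR 4.0.16: filterByExpr, TMM, a mean per group over all 8 libraries, two-sided quasi-likelihood F tests and Benjamini-Hochberg adjustment over all tested sites. Each standard error was obtained by dividing the absolute log2 fold change by the root of F. A run on simulated counts checked only that planted changes were recovered in part, and set no limit on false calls. Alternatives used DESeq2 1.42.0, limma 3.58.1 and other edgeR settings. Intervals cover counting error only. The windows, contrasts and rules were chosen with earlier results of these data known. Every member called between genotypes or in the interaction was named, with the 6 smallest adjusted p-values of each subset comparison, and the 2 strongest and the widest member of each window. Related genes and markers of other cell types were not analysed here, as no mm9 annotation was used.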

Additional observations from a re-analysis of the deposited data

How the results depend on the processing

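Of 31 calls of members in the 4 pairwise comparisons, 9 held under every alternative in which the site was tested, 8 at Bhlhe40 and 1 at Irf4. The number of members called in Pggt1b-deficient against WT eTreg was 9, and 3 with DESeq2, 1 with limma-voom and group weights, 3 with only the compared libraries and 2 after thinning every library to the size of the smallest (27 members tested), with 0 to 8 when 1 library was left out. For WT eTreg against WT cTreg it was 14, and 8 with DESeq2 and 4 after thinning, with 8 to 16 when 1 library was left out. For Pggt1b-deficient eTreg against cTreg it was 8, and 4 with limma-voom or with only the compared libraries, with 3 to 10 when 1 library was left out. The interaction count was 0, and 0 to 2 when 1 library was left out. Over all sites, 11.1% were called in Pggt1b-deficient against WT eTreg. That share was 9.49% with DESeq2, 6.09% with limma-voom, 8.73% with only the compared libraries and 9.56% after thinning. For WT eTreg against WT cTreg it was 28.7%, and 17.8% with DESeq2 and 14.6% after thinning. For Pggt1b-deficient eTreg against cTreg it was 9.12%, and 4.11% with limma-voom and 5.85% with only the compared libraries. The cause of these shifts was not tested. Without both Pggt1b-deficient eTreg libraries, 16 members were called in the WT subset comparison and 0 between genotypes in cTreg cells. The shares of all sites called were then 34.3% and 4.18%. The interaction at chr6:108622197-108622274 was -0.39, and 0.078 after thinning; it ranged from -1.36 to 0.18 when 1 library was left out, turning positive without replicate 1 of WT cTreg (0.18) or of Pggt1b-deficient cTreg (0.012).

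Window sums moved by more than the spread between replicates to 81.8 CPM (Batf, Pggt1b-deficient cTreg), 199.85 CPM (Irf4, WT eTreg) and 528 CPM (Bhlhe40, WT eTreg) with raw library totals, and to 167 CPM (Irf4, Pggt1b-deficient eTreg) and 232 CPM (Irf4, WT cTreg) with RLE scaling.

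With the replicate number of the titles as a block, 8, 0, 13, 6 and 0 members were called in Pggt1b-deficient against WT eTreg, the same in cTreg, WT eTreg against WT cTreg, Pggt1b-deficient eTreg against cTreg, and the interaction. In the same order, 10.3%, 2.08%, 26.8%, 8.42% and 1.38% of all sites were called. The deviations of same-numbered libraries from their group means had a correlation of -0.0175 to 0.0643 across sites. The labels do not say whether same-numbered libraries share a chimera, and these correlations do not settle it.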

Other observations

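The nearest sites on either side of each window border are given as group means, with no test. At the upper Irf4 border, the last site inside, chr13:30878097-30878469, averaged 36.2 CPM (Pggt1b-deficient eTreg), 46.5 CPM (WT eTreg), 55.7 CPM (Pggt1b-deficient cTreg) and 47.5 CPM (WT cTreg). The first site beyond it, chr13:30882205-30882284, averaged 4.76, 3.45, 4.56 and 4.59 CPM in the same order of groups. At the lower Irf4 border, chr13:30825115-30825200 inside averaged 4.69, 1.39, 6.45 and 4.15 CPM, and chr13:30773827-30774003 outside 12.0, 6.67, 16.7 and 9.46 CPM, with WT eTreg lowest at both.

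At the lower Batf border, chr12:87002036-87002084 inside averaged 4.61, 3.59, 5.88 and 4.15 CPM in the same order, and chr12:86988484-86988567 outside 3.72, 2.83, 3.69 and 2.95 CPM. At the upper one, chr12:87053690-87053758 inside averaged 1.63, 2.36, 0.699 and 0.758 CPM, and chr12:87070467-87070507 outside 1.41, 1.66, 1.53 and 1.32 CPM. At the lower Bhlhe40 border, chr6:108561812-108561863 inside averaged 0.593, 0.728, 1.29 and 1.48 CPM, and chr6:108548286-108548350 outside 1.04, 1.24, 0.138 and 0.479 CPM. At the upper one, chr6:108667811-108667947 inside averaged 1.04, 2.06, 4.07 and 3.28 CPM, and chr6:108686248-108686503 outside 6.55, 9.41, 9.48 and 11.9 CPM.

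Outside the windows, 31120 sites had a mean count of at least 50, and their log2(CPM + 0.5) was correlated with the log2 window sum over the 8 libraries. The sites most like the Bhlhe40 sum were chr7:50720506-50721561, chr18:65151252-65151459 and chr19:25045889-25046116 (Pearson r of 0.995, 0.995 and 0.995). For Irf4 they were chr9:96561065-96561198, chr5:73037476-73037656 and chr16:23228582-23228865 (0.992, 0.989 and 0.987), and for Batf chr11:57917294-57917903, chr12:101425622-101426045 and chr18:68092411-68092975 (0.992, 0.986 and 0.977). These are the best of many candidates over libraries that share 4 groups and their depths, given as a description.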
